A study of Rattus norvegicus with 8 samples.

Results

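The miRNAs described here come from the locus that holds Mir144 and Mir451a, whose products accumulate in red blood cells. They were chosen by name, as every row of the deposited table named for miR-144, miR-451 or miR-486, to gauge how much red cell material each kidney held. Of the 620 mature miRNAs listed, 4 matched: miR-451, miR-144*, miR-144 and miR-451*. No row named miR-486, so that miRNA is not analysed here. The asterisk marks the arm of a hairpin that was named as the minor product.

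The kidneys were those of male Big Blue rats, transgenic Fisher 344 animals that carry a bacterial reporter gene for mutation assays. The 4 AA-treated rats were gavaged with the sodium salt of aristolochic acid (AA), a plant compound that damages the kidney and causes tumors. The dose was 10.0 mg/kg in a volume of 4 ml/kg, given on 5 occasions a week, and dosing began when the animals were 6 weeks old. The 4 control rats were dosed at the same times with sodium chloride solution (0.9%). The treatment protocol gives 12 weeks for every rat, the descriptions of the single samples give 12, 13, 14 and 15 weeks for the rats numbered 1 to 4 of each group, and the labelled age of every rat is 18 weeks. Each kidney gave a small RNA library of its own, from 40 to 50 mg of cut tissue, with no sorting of cells. Whether blood was flushed from the kidneys is not given in the sources used here.

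miR-144 and miR-451 are cut from a shared primary transcript that the transcription factor GATA1 switches on in erythroid cells, the precursors of red cells. Mature red cells have no nucleus but keep these miRNAs, which is why miR-451 is often read as a sign of red cells in a blood or tissue sample. miR-451 is also known for its unusual maturation, in which the protein Argonaute2 cuts the short hairpin in place of Dicer, the enzyme that processes most miRNA hairpins. One known target of miR-451 is the mRNA of the signalling adaptor 14-3-3zeta, and one of miR-144 is the mRNA of Nrf2, a regulator of the oxidative stress response.

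The mature sequences show which arm each count belongs to. They were taken from RefSeq (GRCr8, plus strand) and all 4 members were found there, with miR-144 taken as the 3p arm, miR-144* as the 5p arm, miR-451 as the 5p arm and miR-451* as the 3p arm. The deposited table names no genome build, so the positions are those of the RefSeq entries. Capitals mark the seed, bases 2 to 8 counted from the 5′ end, through which a miRNA pairs with its targets.
miR-451, chr10:63459585-63459606: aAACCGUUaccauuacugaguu
miR-144*, chr10:63459409-63459431: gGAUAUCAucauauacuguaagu
miR-144, chr10:63459446-63459465: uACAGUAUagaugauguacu
miR-451*, chr10:63459612-63459634: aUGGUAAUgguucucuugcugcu
The 4 seeds all differ. None of the 693 rat mature miRNA names in the same source shared bases 2 to 8 with a member. miR-144 shared bases 2 to 7 with the 3p arms of miR-101a and miR-101b, and miR-451* shared them with the 5p arm of miR-1193.

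The hairpins are shown because the arms differ so much in their counts. They lie in the order Mir144, then Mir451a, with 89 bases between them, and the stretch from the first base of Mir144 to the last base of Mir451a is 244 bases long. In Mir144 (chr10:63459397-63459479, 83 bases), capitals mark both mature arms. In Mir451a (chr10:63459569-63459640, 72 bases), capitals mark miR-451 alone.
Mir144: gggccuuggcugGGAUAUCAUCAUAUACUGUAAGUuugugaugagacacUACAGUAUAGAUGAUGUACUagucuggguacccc
Mir451a: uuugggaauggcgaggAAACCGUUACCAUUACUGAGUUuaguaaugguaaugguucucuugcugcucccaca
In the structure predicted by RNAfold, the arms of Mir144 faced each other across the stem, with 20 of the 23 bases of miR-144* and 19 of the 20 bases of miR-144 paired. miR-451 took bases 17 to 38 of its hairpin. Its last bases filled the predicted loop, which spanned bases 35 to 38, and 17 of its 22 bases were paired.

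The values compared are read counts divided by a median-of-ratios size factor for each library and are called normalized counts. The libraries held between 13412373 and 15616670 counts on miRNAs and the size factors ranged from 0.818 to 1.28. The rats numbered 4 stood apart in their groups. Over the 305 miRNAs with at least 10 counts in every rat, the root mean square deviation from the group mean on the log2 scale was 0.483 in control rat 4 and 0.567 in AA-treated rat 4, against 0.256 to 0.402 in the other 6 rats. Results are therefore also given without these rats.

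miR-451 was the most abundant of the 4 and ranked 68th of 620 by mean normalized count. Its normalized counts were 6728, 11578, 9984 and 8395 in control rats 1 to 4. In those given AA they were 6310, 7857, 5262 and 2098. AA-treated rats 1, 3 and 4 lay below every control rat, whereas AA-treated rat 2 lay above control rat 1, so that the groups overlapped. miR-144*, the arm that ranked 92nd, had 4169, 5074, 4822 and 3657 normalized counts in control rats 1 to 4. In AA-treated rats 1 to 4 it had 3814, 3325, 2439 and 1230. AA-treated rats 2, 3 and 4 lay below every control rat, and AA-treated rat 1 lay above control rat 4.

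miR-144, the arm for which the Nrf2 target was named above, ranked 200th. It had 182, 332, 317 and 211 normalized counts in control rats 1 to 4, and 194, 258, 187 and 74.1 in AA-treated rats 1 to 4. Here AA-treated rat 4 was the only AA-treated rat below every control rat. miR-451* had 1 count in control rat 2, 1 count in AA-treated rat 1 and none in the other 6 rats. In those 6 rats a count of 0 allows up to 0.192 to 0.218 counts per 1000000, depending on the library. Over all 8 rats it made up 2 of the 58022 counts on the arms of Mir451a, or 0.00345% (95% Clopper-Pearson interval 0.000417% to 0.0125%). Such intervals and limits cover counting error only, since PCR reads are not independent molecules. No fold change is given for miR-451*, which was at or under 3 counts in every rat.

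**Figure D1:**
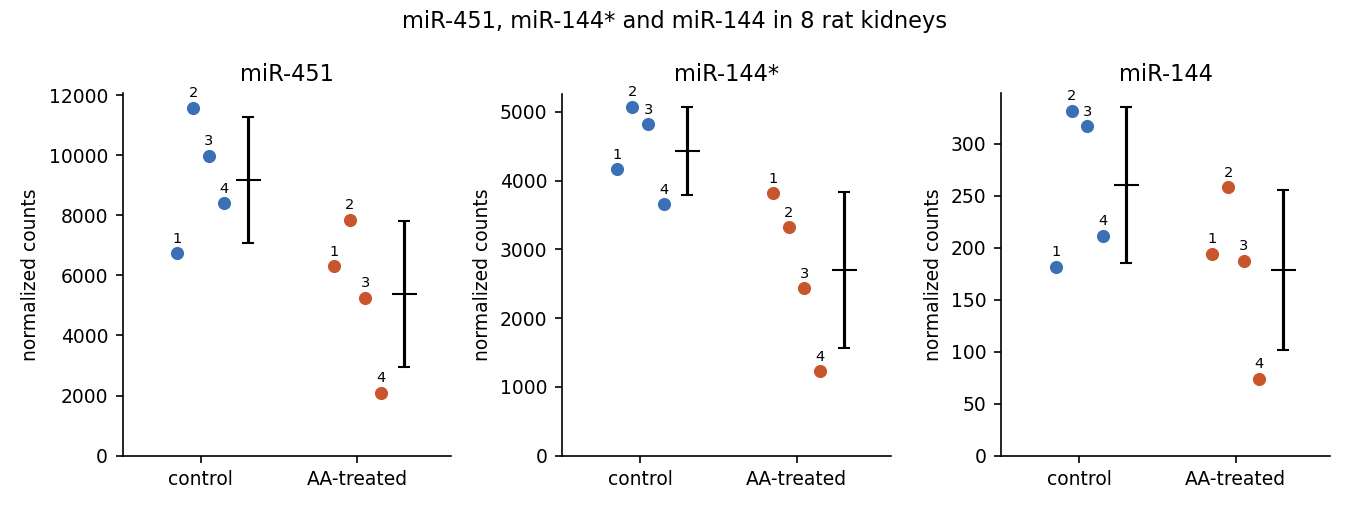
Normalized counts (linear axis from 0) of miR-451, miR-144* and miR-144 in 4 control and 4 AA-treated rats, each point being 1 rat with its number, and the bar beside each group its mean and SD. AA-treated rat 4 was the lowest of the 8 rats in each panel, and the groups overlapped in each.

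The question put to these values was whether the kidneys of AA-treated rats held more or less of the red cell miRNAs than those of the control rats. miR-451 averaged 5382 ± 2435 normalized counts after AA and 9171 ± 2084 in the controls (SD, n = 4 each), a ratio of 0.587. On the log2 scale the fitted change was -0.77 with a standard error of 0.32 and a 95% interval of -1.46 to -0.075, and its Benjamini-Hochberg adjusted p over the 620 miRNAs was 0.167 (quasi-likelihood test of edgeR). miR-144* averaged 2702 ± 1134 after AA and 4431 ± 641 in the controls (SD, n = 4 each), a ratio of 0.610 and a log2 fold change of -0.71 (edgeR, standard error 0.29, 95% interval -1.34 to -0.088, adjusted p = 0.158). For miR-144 the means were 178 ± 76.6 after AA and 260 ± 74.9 in the controls (SD, n = 4 each), and the log2 fold change was -0.55 (edgeR, standard error 0.35, 95% interval -1.29 to 0.20, adjusted p = 0.366).

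A miRNA was called when its adjusted p was under 0.05 and its ratio of means was over 1.5 in either direction. By this rule 0 of the 4 members were called, against 9.03% of the 620 miRNAs tested, 3.23% being lower and 5.81% higher in AA-treated rats. The unadjusted p was under 0.05 for 2 of the 4, miR-451 (0.0323) and miR-144* (0.0283), in the same edgeR test, against 148 of the 620 miRNAs. Neither DESeq2 nor limma-voom called a member. The count of 2 of the 4 members fell to 0 with total counts, without control rat 2 or without control rat 3, and to 1 without AA-treated rat 3. It rose to 3 without AA-treated rat 2 and with the replicate number as a block. With the replicate number as a block, 1 of the 4, miR-144*, was called (adjusted p = 0.0414 from edgeR). The groups did not overlap for 16.3% of the 620 miRNAs and overlapped for each of the 4 members. The intervals of miR-451 and miR-144* still reach from a fall of more than 2-fold to almost no difference, so that these data do not show that the levels were alike.

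The size of the difference depended on AA-treated rat 4, in which miR-451 was 4.37-fold, miR-144* 3.60-fold and miR-144 3.51-fold below the control mean. Without this rat the log2 fold changes were -0.49 for miR-451 (adjusted p = 0.221), -0.46 for miR-144* (adjusted p = 0.233) and -0.28 for miR-144 (adjusted p = 0.571), all from edgeR. Without both rats numbered 4 they were -0.53, -0.54 and -0.36, with adjusted p from 0.130 to 0.460. The direction was the same in each of these fits and no member was called. With total counts the log2 fold changes were -0.51 for miR-451, -0.47 for miR-144* and -0.29 for miR-144 (adjusted p from 0.341 to 0.609, edgeR). This scaling raised the median of all log2 fold changes from 0.046 to 0.31. Relative to that median miR-451 stood at -0.82 in place of -0.81, miR-144* at -0.78 in place of -0.76 and miR-144 at -0.60 in place of -0.59. A change of scaling shifts all miRNAs by nearly the same amount, so these distances cannot show whether the differences depend on it.

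As counts per 1000000 counts of the library (CPM), with no size factor, the 4 rows together came to 624 ± 288 CPM after AA and 878 ± 189 CPM in the controls (SD, n = 4 each). The highest share, 0.105% (95% Clopper-Pearson interval 0.104% to 0.107%), was that of control rat 2. The lowest, 0.0268% (0.0259% to 0.0276%), was that of AA-treated rat 4. On the log2 scale the mean share was 0.61 lower in the AA-treated rats, but only 0.25 lower without AA-treated rat 4. AA-treated rat 2, at 964 CPM, lay above control rats 1 and 4, at 699 and 731.

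The members moved together from rat to rat, the arms of Mir144 least closely. On the log2 scale, miR-451 and miR-144 had a Pearson's r of 0.976 over the 8 rats (exact permutation test, two-sided, p = 5.46e-04, adjusted p = 0.00164 over 3 relations) and a Spearman's rho of 0.905 (p = 0.00456, adjusted p = 0.0137, exact permutation). miR-451 and miR-144* had an r of 0.957 (exact permutation p = 0.00139, adjusted p = 0.00208) and a rho of 0.810 (p = 0.0218, adjusted p = 0.0327, exact permutation). The arms of Mir144 had an r of 0.911 (exact permutation p = 0.00623, adjusted p = 0.00623) and a rho of 0.667 (p = 0.0831, adjusted p = 0.0831, exact permutation).

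Both members of each pair were divided by the same size factor. On CPM the r values were 0.966, 0.949 and 0.895 in the same order. Without the 2 rats farthest from the median of the first member, AA-treated rat 4 being among them each time, r over the other 6 rats was 0.835, 0.742 and 0.593. With each group centred on its own mean, r was 0.982, 0.927 and 0.893. A group of 4 rats is too few for an r of its own.

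**Figure D2:**
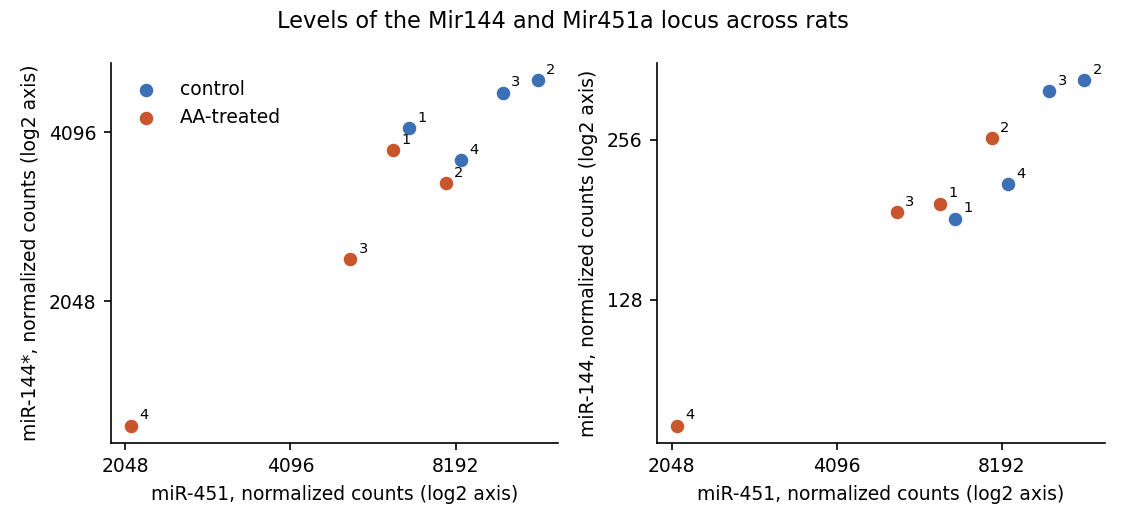
Normalized counts of miR-144* (left) and miR-144 (right) against miR-451 on log2 axes, each point being 1 rat with its number and coloured by group. The points rise together (r = 0.957 left and 0.976 right), with AA-treated rat 4 alone at the low end.

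Ratios within a library need no size factor and compare the products of the locus directly. miR-451 had 1.55, 2.14, 1.94 and 2.17 counts per count of the 2 arms of miR-144 in control rats 1 to 4. In AA-treated rats 1 to 4 the ratio was 1.57, 2.19, 2.004 and 1.61. Both groups spanned nearly the same range, and AA-treated rat 4, with the lowest levels of all rats, was inside it. The mean log2 ratio was 0.87 ± 0.24 after AA and 0.95 ± 0.23 in the controls (SD, n = 4 each), a difference of -0.082 (exact permutation test, two-sided, p = 0.743), smaller than the SD within a group. It was -0.26 against miR-144 alone (exact permutation p = 0.0571), -0.071 against miR-144* alone (exact permutation p = 0.771) and 0.035 without both rats numbered 4.

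miR-144* outnumbered miR-144 in every library, by 22.9, 15.3, 15.2 and 17.3 counts to 1 in control rats 1 to 4 and by 19.6, 12.9, 13.0 and 16.6 in AA-treated rats 1 to 4. The arm with the asterisk was thus the major one in these counts. The mean log2 ratio was 3.93 ± 0.29 after AA and 4.12 ± 0.28 in the controls (SD, n = 4 each), which did not differ beyond the spread between rats (exact permutation test, two-sided, p = 0.371). The gel band cut for the libraries held RNA of 22 to 30 nt, and the RefSeq sequence of miR-144 has 20 bases against 23 for miR-144*. The part of this size cut in the ratio of the arms was not tested.

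The ratio of miR-451 to miR-23a is used in blood samples to detect lysed red cells, because miR-23a is scarce in them. It was 0.544, 0.978, 0.671 and 0.349 in control rats 1 to 4, and 0.458, 0.427, 0.287 and 0.0879 in AA-treated rats 1 to 4. AA-treated rats 3 and 4 lay below every control rat. The mean log2 ratio was -1.92 ± 1.10 after AA and -0.75 ± 0.62 in the controls (SD, n = 4 each), a difference of -1.16 (exact permutation test, two-sided, p = 0.114, where 0.0286 is the smallest p that 4 rats against 4 allow). It was -0.63 without AA-treated rat 4 (exact permutation p = 0.229). miR-23a itself ranged from 11844 to 24065 normalized counts, with the highest values in control rat 4 and AA-treated rat 4, so that this partner varied as well. With miR-126 in place of miR-23a the difference was -0.64 (exact permutation p = 0.514). With the size factor in place of miR-23a it was -0.89 (exact permutation p = 0.0571).

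**Figure D3:**
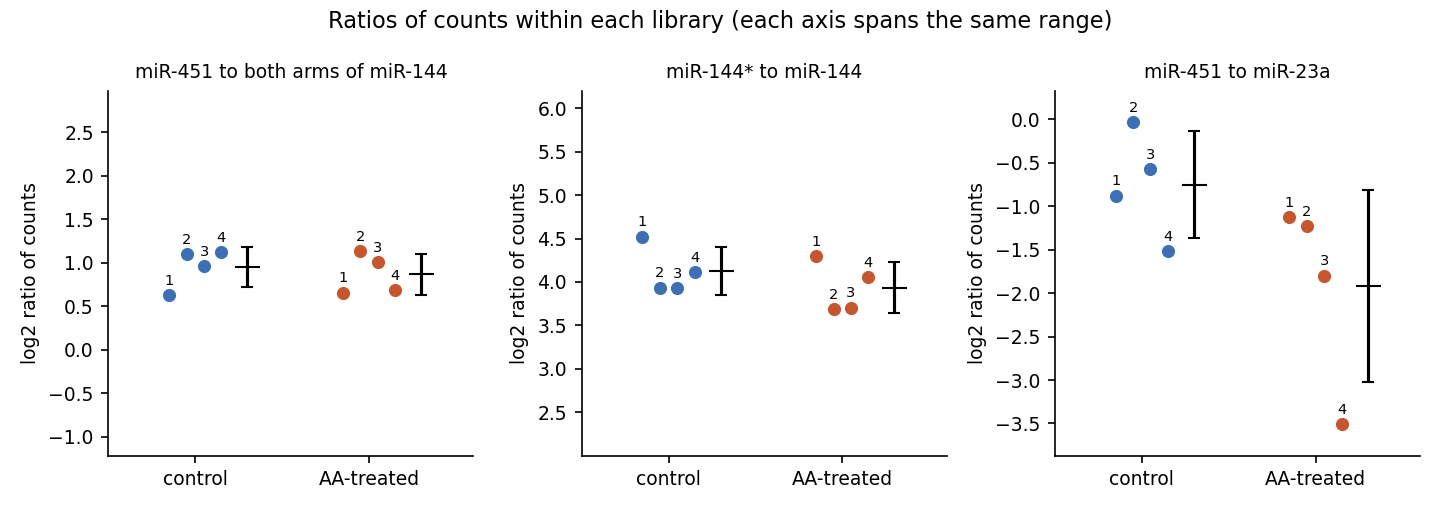
Log2 ratios of counts within each library, miR-451 to the sum of the miR-144 arms (left), miR-144* to miR-144 (middle) and miR-451 to miR-23a (right), each point being 1 rat with its number and the bar the mean and SD of 4 rats. All axes span the same number of log2 units, and the ratios within the locus lay closer together than the ratio to miR-23a, which was lowest in AA-treated rat 4 (-3.51).

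Over both groups, the red cell miRNAs had a larger within-group spread than most miRNAs of like level. The within-group SD of miR-451 on the log2 scale was 0.64, against a median of 0.29 for the 40 other miRNAs whose mean lay within a factor of 2 of its own, of which 1 had a larger SD. For miR-144* the SD was 0.54 against 0.28, with 4 of 41 larger, and for miR-144 it was 0.63 against 0.33, with 11 of 73 larger. In the control rats alone, this held less for miR-451 and miR-144 and not for miR-144*. The SD there was 0.34 for miR-451 against 0.24 (9 of 40 larger), 0.21 for miR-144* against 0.23 (23 of 41 larger) and 0.43 for miR-144 against 0.31 (21 of 73 larger).

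To see what else followed this pattern, Pearson's r with miR-451 was computed over the 8 rats on log2 normalized counts centred on each group mean, for the 304 other miRNAs with at least 10 counts in every rat. These r values are descriptions, share the size factors and depend on AA-treated rat 4, and their median was -0.031. miR-144 was first (0.982) and miR-144* was the next member (0.927). The 5 closest miRNAs outside the locus were miR-381 (0.955), miR-382* (0.935), miR-7a-1* (0.935), miR-411 (0.923) and miR-142-5p (0.921). miR-381, miR-382* and miR-411 belong to the large imprinted miRNA cluster of the Dlk1-Dio3 region and are not known as red cell miRNAs. miR-381 had 235 to 310 normalized counts among the controls, and 229, 207, 165 and 61.9 in AA-treated rats 1 to 4. AA-treated rat 4 was thus also the lowest rat for miR-381. Of these 5, miR-382* fell by 1.61 (adjusted p = 0.0113) and miR-411 fell by 1.04 (adjusted p = 0.0455) on the log2 scale (edgeR), and the other 3 were not called.

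Of the miRNAs that share bases 2 to 7 with miR-144, miR-101a had an r of 0.789 and miR-101b of 0.895 with miR-451. Both were far more abundant than miR-144, at 294189 ± 42467 and 207222 ± 26767 normalized counts among the controls and 230196 ± 67702 and 164684 ± 40402 after AA (SD, n = 4 each). Neither was called, with adjusted p of 0.379 and 0.361 from edgeR.

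Lists of miRNAs that mark other cells showed whether the variation in miR-451 ran with other blood or kidney cells. In bulk tissue, fewer cells of a type and less RNA per cell cannot be told apart. The leukocyte list had 5 of its 6 miRNAs in the table, of which 2 rose in the AA-treated rats, miR-142-3p (by 1.42 on the log2 scale, standard error 0.22, adjusted p = 7.92e-04) and miR-223 (by 0.96, standard error 0.24, adjusted p = 0.0231), none fell and 3 were not called (edgeR). The summed level of the list was 31909 to 42211 normalized counts among the controls and 48745 to 77012 after AA, with the highest value in AA-treated rat 4, where the red cell miRNAs were lowest. The median log2 fold change was 0.52 for this list, -0.71 for the 3 testable red cell miRNAs, -0.77 for the kidney tubule list and 0.046 for all miRNAs. The r with miR-451 was -0.415 for miR-223, -0.573 for miR-150 and -0.400 for miR-146a, and the median of the leukocyte list was -0.415. The kidney tubule list had a median r of -0.154 (from -0.411 to 0.683). The striated muscle list had -0.429 (from -0.882 to 0.304) over its 4 miRNAs with at least 10 counts in every rat.

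The arms of miR-142 and of miR-126 split in how they ran with miR-451, as did those of some other hairpins. miR-142-5p, from the same leukocyte hairpin as miR-142-3p, had an r of 0.921 with miR-451, whereas miR-142-3p had -0.582. In AA-treated rat 4, miR-142-5p was 1.13 log2 units below the mean of its group and miR-142-3p was 0.55 above it. The endothelial hairpin miR-126 split likewise, with an r of 0.910 for miR-126* and -0.590 for miR-126. In AA-treated rat 4, miR-126* was 1.51 log2 units below its group mean and miR-126 was 0.30 above it. Among the 305 miRNAs, 17 were more than 1 log2 unit below their group mean in that rat and 12 more than 1 above. miR-126* was the 3rd lowest, miR-451 the 7th, miR-144 the 11th, miR-142-5p the 12th and miR-144* the 16th. The arms of miR-142 and of miR-126 thus lay on opposite sides of their group mean in the library that was lowest in red cell miRNAs. The part of this in the values of miR-451 and miR-144 was not tested. Such splits were not particular to these hairpins. By r with miR-451, miR-191 had 0.890 and miR-191* -0.604, and miR-186 had 0.753 and miR-186* -0.817. Other hairpins did not split, among them miR-99a (0.825 and 0.855 for miR-99a*) and miR-200a (0.745 and 0.845 for miR-200a*). The same held for miR-200b (0.751 and 0.814 for miR-200b*) and miR-29c (0.846 and 0.731 for miR-29c*). How many hairpins split was not counted.

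**Figure D4:**
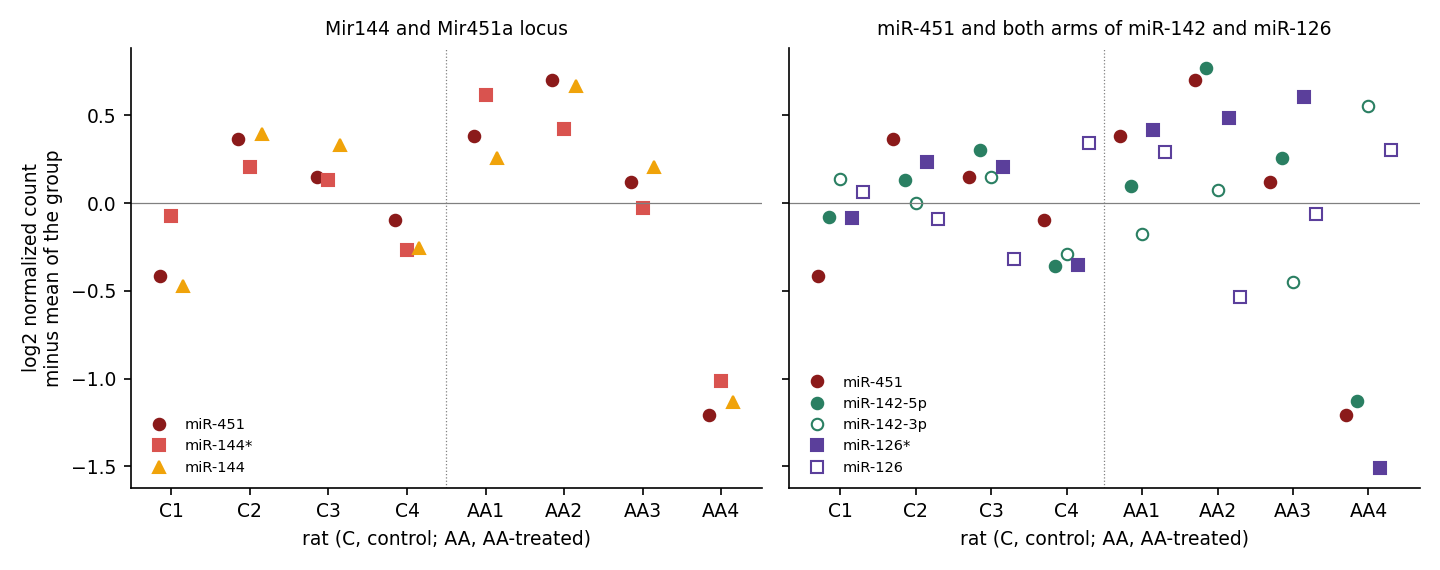
Log2 normalized counts minus the mean of the rat's own group for the 3 testable members (left) and for miR-451 beside both arms of miR-142 and miR-126 (right), with control rats (C1 to C4) and AA-treated rats (AA1 to AA4) on the x axis and open symbols for miR-142-3p and miR-126. In AA-treated rat 4, miR-451 (-1.21), miR-142-5p (-1.13) and miR-126* (-1.51) were low, whereas miR-142-3p (0.55) and miR-126 (0.30) were above 0.

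A further list held miRNAs that are abundant in red cells but also made elsewhere. All 5 were in the table and none was called (edgeR). Their r with miR-451 was 0.862 for miR-25, 0.733 for miR-93, 0.453 for miR-16, 0.192 for miR-363 and 0.103 for miR-92a. The other arms miR-25* and miR-16*, which are not on the list, had an r of -0.584 and -0.238. The summed level of the list was 51569 to 66639 normalized counts among the controls and 57654 to 68658 after AA, with a median log2 fold change of 0.0032. The endothelial list (2 of 2 listed, none called) summed to 124106 to 164003 among the controls and 88876 to 137262 after AA.

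The hepatocyte and plasma list, miR-122 and miR-122*, was not called either (adjusted p of 0.283 and 0.294 from edgeR). It summed to 64.8 to 759 normalized counts among the controls and reached 7754 in AA-treated rat 2, while the rest of that group had 10.1 to 42.4. AA-treated rat 2 was also the highest AA-treated rat for miR-451 and miR-144, but not for miR-144*. The part of any carried-over liver or plasma RNA in its values was not tested. The striated muscle list had 5 of 6 miRNAs listed and none called, with sums of 2186 to 2524 among the controls and 1501 to 2416 after AA. The kidney tubule list had all 5 listed. Of these miR-204 fell by 0.86 on the log2 scale (edgeR, standard error 0.24, adjusted p = 0.0357) and 4 were not called, whereas DESeq2 and limma-voom each called 2, miR-204 and miR-194. In edgeR, 3 of the 5 had an unadjusted p under 0.05, against 148 of the 620 miRNAs. The median log2 fold change of the list, -0.77, was about as low as that of the red cell miRNAs. miR-196a went the other way, at 0.44 (adjusted p = 0.210 from edgeR). The labelled tissue was represented in every library, with sums of 359262 to 1162410 among the controls and 226187 to 410201 after AA. In the 4 lists with 0 calls by edgeR (other red cell, endothelial, hepatocyte and muscle miRNAs), DESeq2 and limma-voom also made 0 calls, and 1 miRNA, from the muscle list, had an unadjusted p under 0.05 with each of these tools.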

How the data were processed

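Per the labels and the study's methods, small RNA libraries (22 to 30 nt band) of 8 kidneys were read for 36 cycles. The submitters' processing notes name CASAVA 1.7. The authors trimmed adaptors, discarded contaminated reads and used miRanalyzer with miRBase 16. The deposited values are whole-number counts per mature miRNA and rat, not normalized or pooled. The genome build and how reads matching more than 1 miRNA were counted are not given in the sources used here.

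Counts were scaled by median-of-ratios size factors and all 620 miRNAs were fitted with edgeR 4.0.16 (R 4.3.3) without covariates, a simulated data set being run first to test the fit. Standard errors and 95% intervals were derived from its F statistics. DESeq2 1.42.0 and limma 3.58.1 were alternatives. Ratios were compared by exact permutation over the 70 labelings of the rats. The planned ratio of miR-486 to miR-451 could not be formed, and no p is given for the summed members. Python 3.11.15, scipy 1.17.1 and RNAfold 2.7.2 were used.

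The members and marker lists were chosen with earlier results of these data known. By the rule for names, every member, the marker lists and the 5 non-members with the highest group-centred r with miR-451 are named. miR-101a and miR-101b were named for their sequence, and miR-142-3p, miR-126 were set beside the other arm of their hairpins after their values were seen. miR-25*, miR-16* and both arms of miR-191, miR-186, miR-99a, miR-200a, miR-200b and miR-29c were likewise named after their values were seen. Depth was 13412373 to 15616670 counts per rat. Rats of the same number are different animals, and the main fit is unpaired.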

Additional observations from a re-analysis of the deposited data

Results flagged for a closer look

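The log2 ratio of miR-451 to miR-142-3p, a leukocyte miRNA, was -4.67 in AA-treated rat 4, far from the other 3 AA-treated rats, which lay between -2.35 and -2.28. The control rats lay between -1.19 and -0.27. Against miR-142-5p, the other arm of that hairpin, AA-treated rat 4 did not stand apart. That log2 ratio was 2.74 in AA-treated rat 1, while the rest of its group lay between 2.32 and 2.39. The controls had 3.14 to 3.74. Both ratios were formed after the counts had been seen. In 18 sets of 4 rats examined these were the 2 in which the lowest or highest rat was this far from the rest, and chance alone marks about 1 set in 20.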

How the results depend on the processing

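Across 17 alternatives (other normalizations, tests and filters, a replicate block, and leaving out rats), the log2 fold changes of miR-451, miR-144* and miR-144 stayed negative. With each rat left out in turn they ranged from -1.01 to -0.49, -0.93 to -0.46 and -0.78 to -0.28. No member was called, except miR-144* with the replicate number as a block (log2 fold change -0.82, adjusted p = 0.0414 from edgeR), where 74 miRNAs were called in place of 56. Over the other alternatives its adjusted p ranged up to 0.341. Whether the numbers pair the rats was not settled. The deviations of same-numbered rats over 370 miRNAs correlated at -0.011, 0.14, 0.12 and 0.34, a mean of 0.148 against -0.048 for different numbers, and the fit without the block was kept because not every pair was over 0.1. The block changed no other call of a member. With total counts 84.1% of the called miRNAs were higher in AA-treated rats, against 64.3%. The difference in the ratio of miR-451 to miR-144 reversed in sign, to 0.035, without both rats numbered 4, where it also lay within the spread. With 1 rat left out, the exact test of a ratio allows no p below 0.0571, and with 4 pairs none below 0.125. Depth limits only miR-451*.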
